A study of Mus musculus with 4 samples.

Results

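Macrophages of lung tumours were followed through 10 genes, Marco, Mrc1, Cd68, Csf1r, Msr1, Trem2, Spp1, Gpnmb, Ear2 and Pparg, which were taken by symbol from the deposited raw count table. All 10 were found, each in 1 row, among 39017 genes in the table, and all 10 were among the 14225 genes with a mean of at least 1 count per 1000000 of library size (CPM) on which the tests were run. The 4 samples were lung tumours of male C57BL/6 KP mice (K-rasLSL-G12D/WT; p53Fl/Fl), all in the control group of a study of glucose transporters in lung adenocarcinoma, with 1 RNA library from each tumour. Every mouse had received 1500 viral units of lenti.PGK-Cre through the trachea and was killed 22 weeks and 5 days later, when tumours were macrodissected. The genotype label of all 4 is heterozygous fl/wt with no gene named, while the headers of the log2 values read WT. Controls could, by the study's methods, carry none or 1 floxed allele of the glucose transporter gene Slc2a1. The PGK promoter is active in most cell types, so the promoter did not restrict Cre to lung epithelium, and the macrophages came with the tissue of immunocompetent hosts rather than from a sort. With 1 group there was no contrast between conditions: what could be measured was the level of each gene and how far the 4 tumours, numbered as replicates 1 to 4 in the labels, stood from one another. Ages, and whether the tumours came from separate mice, were not given in the labels, so the p-values below describe differences between these libraries, in which tumour and library preparation cannot be told apart.

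Macrophages of the lung are of several kinds. Alveolar macrophages live in the airspaces, depend on the cytokine GM-CSF (Csf2) and on the nuclear receptor PPAR-gamma (Pparg), clear surfactant, and carry the scavenger receptor Marco and the mannose receptor Mrc1. Macrophages of the lung interstitium, and those that arise from blood monocytes, depend more on the receptor of M-CSF (Csf1r), and macrophages that take up much lipid or cell debris in tumours, fat and fibrotic tissue often express Trem2, Gpnmb and Spp1. Cd68 and Csf1r mark most mononuclear phagocytes. Several members are made by other cells as well: Spp1 by epithelial and tumour cells, Gpnmb by melanocytes and osteoclasts, and Pparg by adipocytes and some epithelia.

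The sequence upstream of the 5 members whose levels spread most between tumours is shown, since Marco, Ear2, Trem2 and Mrc1 were all highest in one tumour in which Spp1 was lowest. Each line holds 250 bases before and 50 bases after an annotated start, 5′ to 3′ on the strand of the gene, from the RefSeq promoter table for GRCm38.p6, the build that mm10 names. The capitals mark matches, on either strand, to short motifs searched for in all promoters: GAGGAAG for the myeloid factor PU.1, TGANTCA for AP-1 and TTGC and AA with 2 bases of any kind between them for C/EBP factors. The positions were chr1:120504975-120505274 (minus strand) for Marco, chr14:44102404-44102703 (plus strand) for Ear2, chr17:48346151-48346450 (plus strand) for Trem2, chr2:14229164-14229463 (plus strand) for Mrc1 and chr5:104434861-104435160 (plus strand) for the first of the Spp1 starts.
Marco: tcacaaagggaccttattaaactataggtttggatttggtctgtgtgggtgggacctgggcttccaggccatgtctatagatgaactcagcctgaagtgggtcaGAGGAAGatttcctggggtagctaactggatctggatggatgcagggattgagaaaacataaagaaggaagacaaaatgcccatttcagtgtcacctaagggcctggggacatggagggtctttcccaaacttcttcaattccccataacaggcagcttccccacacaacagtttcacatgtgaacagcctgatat
Ear2: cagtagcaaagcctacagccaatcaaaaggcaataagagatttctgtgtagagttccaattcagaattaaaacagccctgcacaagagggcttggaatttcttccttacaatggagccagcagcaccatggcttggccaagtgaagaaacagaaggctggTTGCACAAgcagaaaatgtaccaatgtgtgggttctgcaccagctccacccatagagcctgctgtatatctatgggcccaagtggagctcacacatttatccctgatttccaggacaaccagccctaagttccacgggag
Trem2: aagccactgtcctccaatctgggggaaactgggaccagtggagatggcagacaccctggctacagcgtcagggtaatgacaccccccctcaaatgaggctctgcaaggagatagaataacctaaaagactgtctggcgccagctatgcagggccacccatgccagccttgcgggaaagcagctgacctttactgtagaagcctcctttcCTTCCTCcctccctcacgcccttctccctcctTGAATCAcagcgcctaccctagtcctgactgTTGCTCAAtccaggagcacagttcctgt
Mrc1: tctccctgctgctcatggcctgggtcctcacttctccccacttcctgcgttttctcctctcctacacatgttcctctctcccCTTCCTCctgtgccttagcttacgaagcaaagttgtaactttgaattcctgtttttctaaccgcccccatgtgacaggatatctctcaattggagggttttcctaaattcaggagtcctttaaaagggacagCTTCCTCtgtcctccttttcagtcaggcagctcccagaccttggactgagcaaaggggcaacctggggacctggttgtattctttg
Spp1: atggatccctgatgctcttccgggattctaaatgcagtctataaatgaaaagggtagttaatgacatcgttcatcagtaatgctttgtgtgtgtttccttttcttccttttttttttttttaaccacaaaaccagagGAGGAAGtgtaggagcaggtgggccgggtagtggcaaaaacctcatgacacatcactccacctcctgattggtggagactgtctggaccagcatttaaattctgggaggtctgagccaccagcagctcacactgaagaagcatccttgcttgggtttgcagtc
The PU.1 letters lay in the printed promoters of Marco (first base at -146 from the start), Trem2 (-41), Mrc1 (-168 and -36) and Spp1 (-113), and not in that of Ear2, which held the C/EBP letters at -90. Trem2 also held the AP-1 letters at -9 and the C/EBP letters at 22. The table had 11 promoters for 8 of the 10 members; 4 of the 11 held the PU.1 letters, 3 the AP-1 letters and 5 the C/EBP letters, against 13.6%, 7.81% and 10.8% of all 32851 promoters of 300 bases in the table. The E-box CACGTG read by Mitf and Tfe factors (7.15% of promoters) and the PPAR response element (0.0396%) were in none of the 11. No match overlapped another. The letters are a description of these windows, and no match says only that the letters are absent from the window. Msr1 and Csf1r were not among the 8 members with a promoter.

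The libraries held 8151613 to 8799007 counts, and 3 counts corresponded to 0.330 to 0.370 CPM. Among marker lists of the cells a dissociated tumour can hold, the mean log2 CPM of 5 leukocyte genes was 5.08, 5.49, 6.12 and 5.48 in tumours 1 to 4 and that of 4 epithelial genes was 9.89, 9.30, 9.11 and 9.29. Tumour 3 thus had the highest leukocyte and the lowest epithelial list, and tumour 1 the reverse. The 5 alveolar type 2 genes, which mark the label's lung epithelium, were at 11.3 in tumour 1 and at 12.2 to 12.4 in the others. In bulk RNA, fewer macrophages and less RNA per macrophage cannot be told apart for any of the values that follow.

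The widest range of the 10 genes was that of Marco. Marco (ENSMUSG00000026390, chr1:120474538-120505024, 17 exons), a class A scavenger receptor that binds bacteria and particles, was at 1.32, 2.21, 12.7 and 2.50 CPM in tumours 1 to 4, from 12, 19, 103 and 21 counts. Tumour 3 stood above the other three, which lay close together. Its level in tumour 3 was 9.63-fold that in tumour 1 (95% interval for counting error 5.28 to 19.2), and the counts differed beyond Poisson noise in a chi-square test (Benjamini-Hochberg adjusted p = 3.76e-33 over all genes tested). The SD of log2 CPM over the 4 tumours was 1.39, the 418th largest of 14225. Without tumour 3 the remaining tumours differed 1.89-fold at most and the chi-square test no longer passed (adjusted p = 0.243).

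Msr1 (ENSMUSG00000025044, chr8:39581685-39642673), the other class A scavenger receptor among the members, was at 13.4, 8.36, 14.9 and 9.75 CPM in tumours 1 to 4. Tumours 1 and 3 were the high pair here, so tumour 1, the lowest for Marco, was next to the highest for Msr1. The highest and lowest differed 1.79-fold (1.32 to 2.42, adjusted p = 0.000232 by the chi-square test). On the log2 scale, Marco minus Msr1 was -3.29, -1.89, -0.23 and -1.94, so the balance of these related receptors moved by 3.06 log2 units between tumours 1 and 3.

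Mrc1 (ENSMUSG00000026712, chr2:14229392-14332057, 30 exons), the mannose receptor CD206, was at 43.7, 39.7, 108 and 53.3 CPM. Tumour 3 was again above the rest, which spanned only 1.34-fold among themselves. The highest and lowest differed 2.71-fold (2.39 to 3.09). Ear2 (ENSMUSG00000072596, chr14:44102654-44103534), a secreted ribonuclease of the eosinophil-associated family that alveolar macrophages also make, was at 25.7, 27.1, 89.6 and 51.9 CPM. It separated the tumours into a low pair (1 and 2), tumour 4, and tumour 3 at the top, with a 3.48-fold range (3.00 to 4.05). The eosinophil genes Epx, Prg2, Ccr3 and Il5ra had 0 counts in all 4 libraries, which allows up to 0.330 to 0.370 CPM each. Ear2 shares a stretch of 471 bases at 97.03% identity with Ear10, whose counts were low (mean 0.732 CPM, highest 2.34 CPM in tumour 3), and how the counting treated reads common to both is not given in the sources used here, so the split between the pair is uncertain.

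Pparg (ENSMUSG00000000440, chr6:115360951-115490399), the nuclear receptor that alveolar macrophages need to mature, was the steadiest member at 61.3, 54.7, 50.3 and 46.5 CPM. Its order was unlike that of Marco, Mrc1 or Ear2, with tumour 1 highest and tumour 4 lowest. The range was 1.32-fold (1.16 to 1.504, adjusted p = 0.000339 by the chi-square test), and it no longer passed without tumour 1 (adjusted p = 0.0877). The SD of its log2 CPM was 0.17, below the median of 0.29 over all genes tested.

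**Figure D1:**
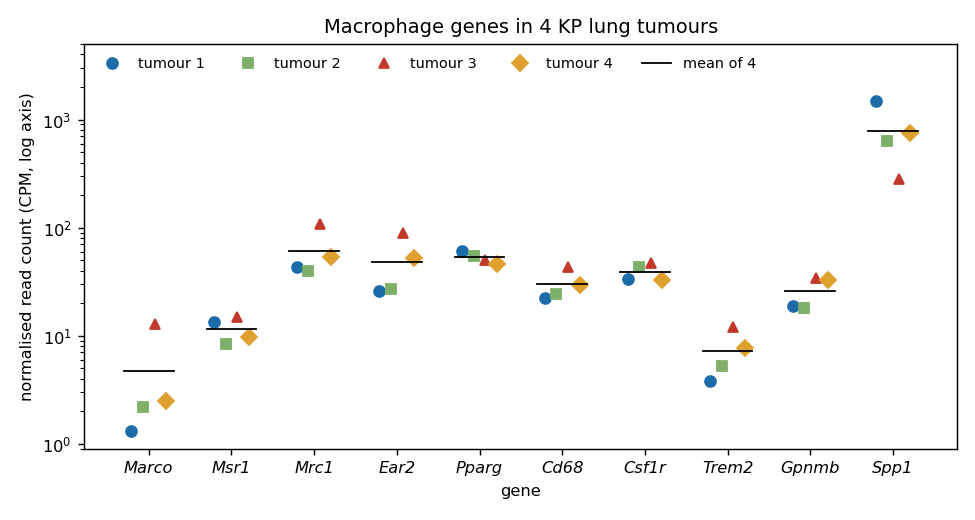
Normalised read counts (CPM, vertical log axis) of the 10 macrophage genes in each of 4 KP tumours, with symbols for single tumours and a line for their mean. Tumour 3 (red triangles) is on top for 8 genes, Marco reaching 12.7 CPM there, while Spp1 runs from 283 CPM in tumour 3 to 1499.8 CPM in tumour 1.

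The general markers of mononuclear phagocytes, Cd68 and Csf1r, both had a range under 2-fold. Cd68 (ENSMUSG00000018774, chr11:69664213-69666153), a lysosomal glycoprotein, was at 22.4, 24.5, 43.2 and 29.6 CPM. Its order, tumour 3 above 4 above 2 above 1, was that of Marco, Trem2 and Ear2, an order held by 8.78% of the genes tested. The range was 1.92-fold (1.61 to 2.298). Csf1r (ENSMUSG00000024621, chr18:61100598-61132149), the receptor for the growth factors M-CSF and IL-34, was at 33.7, 43.4, 47.1 and 32.6 CPM. Tumours 2 and 3 were the high pair and differed little from each other, and the range of 1.45-fold (1.24 to 1.70) was the narrowest after Pparg. Hmgxb3, a gene on the opposite strand with up to 56.3 CPM, shares 873 bases of exon with Csf1r; the strand setting of the counting is not given in the sources used here, so the count of Csf1r is uncertain to that extent.

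The members known from lipid-associated macrophages did not move together. Trem2 (ENSMUSG00000023992, chr17:48346401-48354147), a lipid-sensing receptor that signals through Tyrobp, was at 3.85, 5.23, 12.1 and 7.73 CPM, from 35 to 98 counts. Like Ear2 it was highest in tumour 3 and second in tumour 4, and the highest and lowest differed 3.14-fold (2.11 to 4.76, adjusted p = 1.22e-09 by the chi-square test). Gpnmb (ENSMUSG00000029816, chr6:49036546-49070929), a transmembrane glycoprotein of phagocytes under loaded lysosomes, was at 19.0, 17.9, 34.1 and 32.8 CPM. Tumours 3 and 4 formed a high pair with 276 counts each, and tumours 1 and 2 a low pair. The range was 1.90-fold (1.56 to 2.33).

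Spp1 (ENSMUSG00000029304, chr5:104435118-104441050), which encodes the secreted phosphoprotein osteopontin, ran the other way. Its levels were 1499.8, 629, 283 and 744 CPM in tumours 1 to 4, so the tumour highest for 8 members was the lowest for Spp1 and tumour 1, lowest for Marco, Cd68, Trem2 and Ear2, was the highest. The ratio of tumour 1 to tumour 3 was 5.30 (5.07 to 5.55), and it fell to 2.63 without tumour 1 and to 2.39 without tumour 3. The epithelial list was likewise highest in tumour 1, at 9.89, and lowest in tumour 3, at 9.11. Its genes did not agree, however. Epcam, at 600, 470, 218 and 371 CPM, had the ends of Spp1. Krt8 and Krt18 were highest in tumour 1 but lowest in tumour 2, and Cdh1 was nearly level, at 842 to 887 CPM. These genes were named after their values were seen. The alveolar type 2 list went the other way, at 11.3 in tumour 1 and 12.2 in tumour 3. Its genes did not agree either. Between tumours 1 and 3, Lamp3 rose from 420 to 2515 CPM, Slc34a2 from 1847 to 6686 CPM and Sftpc from 17722 to 24926 CPM. Sftpb, at 8261 and 6601 CPM, and Abca3, at 876 and 759 CPM, were lowest in tumour 3, as Spp1 was. These 5 were also named after their values were seen. The genes of highest likeness to Spp1 in their profile over the 4 tumours were Slc23a3, Antxr2 and Rbp4, and its nearest member was Pparg at a root mean square difference of 0.78 log2 units. The part of epithelial RNA in the level of Spp1 was not tested. Of 5 osteoclast markers, Ocstamp and Calcr were at or under 3 counts in every tumour. Ctsk was at 34.0, 37.2, 85.8 and 60.7 CPM, highest in tumour 3 and lowest in tumour 1, the reverse of Spp1. Acp5 and Dcstamp did not follow Ctsk. Acp5 was at 21.1, 16.8, 19.5 and 20.3 CPM and did not vary beyond counting noise. Dcstamp was at 3.41, 5.11, 2.84 and 2.26 CPM, higher in tumour 1 than in tumour 3. The 3 expressed markers were named after their values were seen. Spp1 also shares 181 bases with Gm42793, an annotated transcript on the same strand that has no row in the count table.

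**Figure D2:**
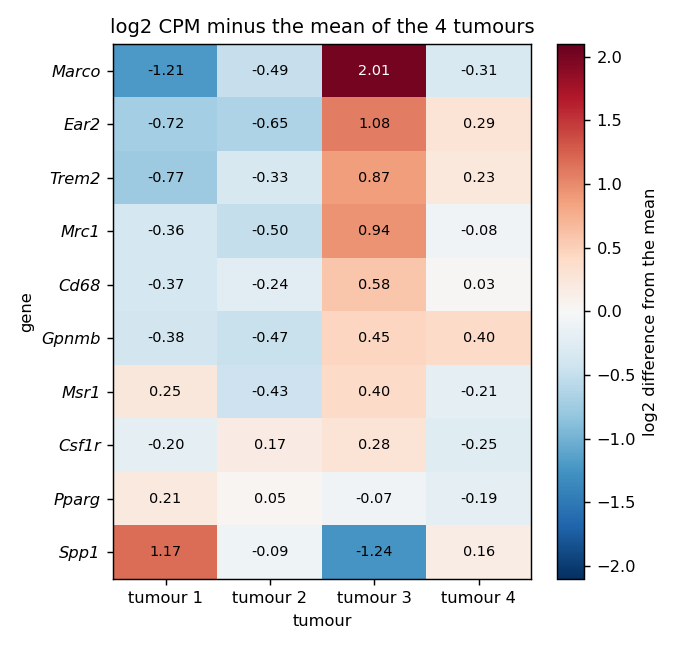
log2 CPM of each macrophage gene (rows) in each tumour (columns) minus the mean of its 4 tumours, red above and blue below that mean. Marco, Ear2, Trem2 and Mrc1 are 0.87 to 2.01 above their means in tumour 3, where Spp1 is at -1.24, and Spp1 is at 1.17 in tumour 1.

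Across the set, 10 of 10 members varied beyond counting noise, as did 76.7% of the 14225 genes tested, so passing that test did not set them apart from most other genes. The highest level was over 2-fold the lowest for 5 of 10 (Marco, Mrc1, Trem2, Spp1 and Ear2), against 28.5% of genes. The median SD of log2 CPM was 0.57 over the members and 0.29 over all genes tested, and the median range was 2.32-fold against 1.58-fold. None of the 10 had 1 tumour standing apart by Dixon's ratio at its 95% limit for 4 samples, against 5.86% of genes, Marco and Mrc1 coming nearest at ratios of 0.72 and 0.71. Tumour 3 was the highest for 8 of 10 members and for 30.2% of genes, and tumour 1 the lowest for 4 of 10 and for 30.4%. The members were chosen as markers of one cell lineage and are not independent of one another, and these last counts were picked after the values had been seen. Without tumour 3 the range was over 2-fold for 3 of 10 members, Trem2 and Ear2 being just past it at 2.01-fold, against 16.5% of genes.

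To see how much of this followed the general macrophage content, each member was set against 12 other macrophage genes (Adgre1, Fcgr1, Mertk, Cd14, Itgam, Spi1, Aif1, Fcer1g, Lgals3, Cybb, Cd300a and Mpeg1). The mean log2 CPM of that list was 4.01, 4.18, 4.80 and 4.32 in tumours 1 to 4; 9 of the 12 genes varied beyond counting noise and 9 were highest in tumour 3. Relative to the list in the same tumour, the SD was smaller for 8 of 10 members, and its median fell from 0.57 to 0.39. For Csf1r (0.26 before and after) and Msr1 (0.39 and 0.38) it hardly changed, and the count was 6 to 8 with each tumour left out in turn. The share over all genes was not computed for this count or for those against other references below. The list was itself highest in tumour 3, as were most members, so these counts do not set the members apart from other genes. Cd68 became nearly flat, at 0.48, 0.44, 0.64 and 0.57 log2 units above the list (SD 0.09). Marco kept an SD of 1.06, being 3.55, 3.00 and 2.96 log2 units below the list in tumours 1, 2 and 4 and 1.12 below it in tumour 3; without tumour 3 that SD was 0.33. Ear2 kept an SD of 0.54 and stayed highest in tumour 3. The SD was larger for Pparg (0.46) and Spp1 (1.31), which did not move with the list: Spp1 was 6.54 log2 units above it in tumour 1 and 3.35 above it in tumour 3. Other references gave other counts. Relative to the 5 leukocyte genes, a list whose mean log2 CPM was also highest in tumour 3, the SD was smaller for 6 of 10 members. The SD was 0.98 for Marco, 0.51 for Ear2, 0.34 for both Mrc1 and Trem2 and 0.13 for Cd68. These 5 members thus narrowed about as much against leukocyte genes as against macrophage genes. Relative to Csf1r alone it was smaller for 5 of the 9 other members.

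**Figure D3:**
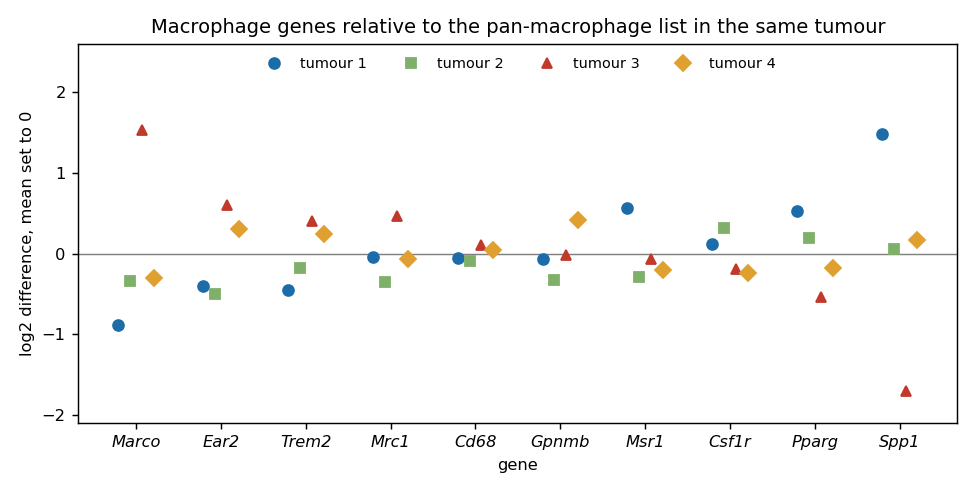
log2 CPM of each macrophage gene minus the mean log2 CPM of 12 pan-macrophage genes in the same tumour, shifted so that each gene averages 0 over the 4 tumours. Cd68 lies close to 0 in every tumour (SD 0.09), Marco remains high in tumour 3, and Spp1 is high in tumour 1 and low in tumour 3.

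The balance between the alveolar members (Marco, Mrc1, Ear2 and Pparg) and the lipid-associated members (Trem2, Spp1 and Gpnmb) was taken as the difference of their mean log2 CPM. It was -1.46, -1.03, 0.03 and -1.26 in tumours 1 to 4. Tumours 1, 2 and 4 lay within 0.43 of each other and tumour 3 was higher, for a range of 1.49. With Spp1 left out, a choice made after its values were seen, the balance was 1.02, 0.97, 1.29 and 0.58 and the range 0.71.

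Levels of different genes were compared per kilobase of annotated exon. Spp1 was the highest at 479 ± 311 CPM per kilobase (SD, n = 4), above 99.7% of the 14100 genes with a length. Ear2 followed at 67.5 ± 41.5, Cd68 at 23.8 ± 7.43, Pparg at 18.0 ± 2.15, Mrc1 at 9.60 ± 4.97 and Csf1r at 6.79 ± 1.25. The lowest were Gpnmb at 3.98 ± 1.33, Msr1 at 1.83 ± 0.48, Marco at 2.43 ± 2.79 and Trem2 at 1.46 ± 0.73 CPM per kilobase, in the order of their mean log2 level. Of the 9 neighbouring pairs in the order, 5 kept the same sign in all 4 tumours, which is the most a set of 4 can give (exact sign-flip permutation test, two-sided p = 0.125, adjusted p = 0.225), so no pair could pass. The other four (Cd68 over Pparg, Mrc1 over Csf1r, Msr1 over Marco and Marco over Trem2) differed by less than the SD between tumours. By annotated length, Marco, Msr1 and Trem2 were thus among the scarce transcripts, above 25.1%, 20.0% and 16.6% of genes, while Spp1 was among the most abundant of the tumour. The place of Trem2 rests on 4946 bases of exon, and its longest transcript is nearly as long at 4784 bases. Which transcripts were present in these tumours was not tested.

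**Figure D4:**
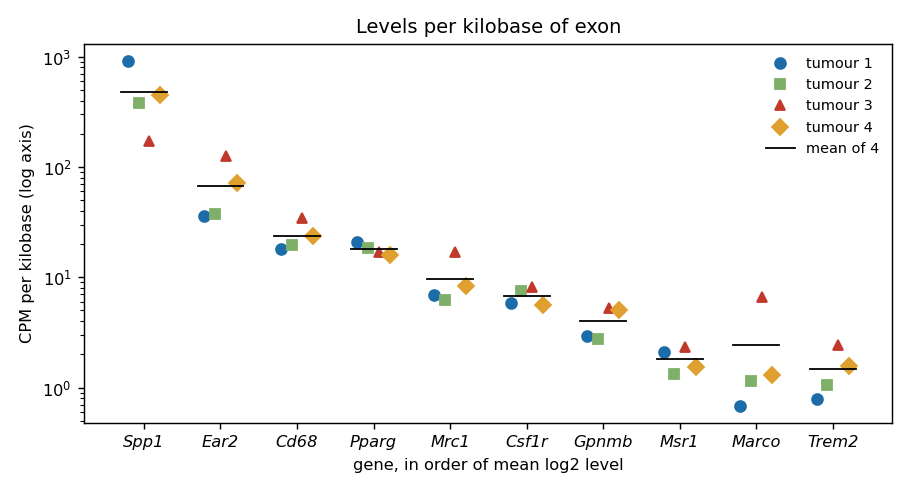
CPM per kilobase of exon (vertical log axis) of the 10 genes in order of their mean log2 level, with symbols for single tumours and a line for the mean. Spp1 is on top at a mean of 479 CPM per kilobase and Trem2 at the end at 1.46, and neighbouring genes overlap in much of the order.

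Genes that work with the members were counted in 10 lists with 126 genes, of which 113 were tested; 96 of these varied beyond counting noise and 65 were highest in tumour 3, where the shares over all genes tested were 76.7% and 30.2%. Each count that follows is to be read beside those shares. Among 14 tested genes that mark alveolar macrophages, 13 varied and 10 were highest in tumour 3. Chil3, a chitinase-like lectin, was at 121, 159, 775 and 355 CPM, the order of Ear2 and Trem2. Siglecf, a sialic acid receptor of alveolar macrophages, was at 3.52, 4.76, 23.6 and 5.59 CPM, with tumour 3 alone high as for Marco. Fabp1, a fatty acid binding protein, was at 1.10, 0.929, 8.27 and 2.14 CPM, again highest in tumour 3. Fabp4, a fatty acid binding protein of alveolar macrophages and of endothelium and fat, was one of 4 that did not follow, at 77.2, 6.97, 5.68 and 11.1 CPM, highest in tumour 1 and lowest in tumour 3. Plet1 was likewise highest in tumour 1 (192 CPM) and at 99.4 to 159 CPM in the others. The remaining 2, named after their values were seen, were Krt79 at 14.1, 2.67, 13.3 and 10.2 CPM, about level in tumours 1 and 3, and Cidec, which was near the limit of 1 CPM for testing, at 0.697 to 1.55 CPM and did not vary beyond counting noise in the chi-square test.

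Of 12 tested genes of interstitial and monocyte-derived macrophages, 10 varied and 4 were highest in tumour 3, both near the shares over all genes (76.7% and 30.2%). The complement genes C1qa, C1qb and C1qc, made by tissue macrophages, were lowest in tumour 3, where C1qa was at 25.7 CPM against 30.4 to 41.9 CPM in the other tumours. The mean log2 CPM of the list spanned 3.52 to 3.83, a narrower range than that of the alveolar list (3.91, 3.52, 4.91 and 4.22 in tumours 1 to 4). Of 15 tested lipid-associated genes, 15 varied and 8 were highest in tumour 3. Clec7a, a receptor for fungal glucans, was at 157 CPM in tumour 3 and 53.5 to 71.8 CPM in the others, whereas Apoe, a lipid carrier, was at 660.3, 216, 82.9 and 309 CPM in tumours 1 to 4, the order of Spp1. Fabp5 was highest in tumour 1 at 1088 CPM and at 385 to 587 CPM in the others.

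**Figure D5:**
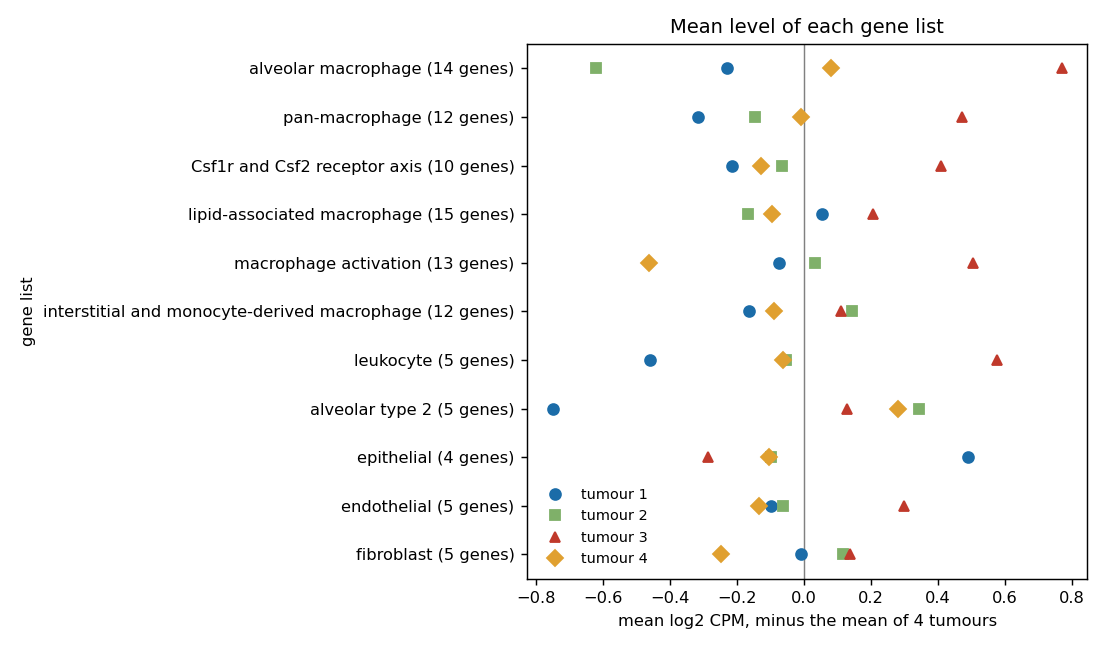
Mean log2 CPM of the tested genes of each list in each tumour, minus the mean of the 4 tumours (horizontal axis); symbols are single tumours. Tumour 3 is highest for the alveolar macrophage list (4.91 log2 CPM before the shift) and for the pan-macrophage list (4.80), and tumour 1 is highest for the epithelial list (9.89).

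The ligands and partners of single receptors were looked at in turn. For Csf1r, its ligand Csf1 was at 4.401, 4.65, 6.79 and 3.81 CPM and the second ligand Il34 at 42.3, 55.2, 55.5 and 48.5 CPM, so Csf1 was highest in tumour 3 and Il34 was about level in tumours 2 and 3, the high pair for the receptor. For the GM-CSF receptor, which maintains alveolar macrophages, the shared chain Csf2rb was at 28.6, 41.5, 95.02 and 41.6 CPM and Csf2ra at 16.1, 13.2, 26.0 and 14.3 CPM. In both chains tumour 3 was the highest, and 9 of 10 genes of the Csf1r and Csf2 receptor list were highest there, 7 of them varying beyond counting noise. For Trem2, the adaptor Tyrobp was at 32.1, 39.1, 78.7 and 46.9 CPM, in the order of Trem2 itself, and the kinase Syk was at 15.1, 14.8, 48.5 and 19.6 CPM. The proteases Adam10 and Adam17, which can shed Trem2, did not follow it: Adam10 was lowest in tumour 3 (216 CPM against 269.7 to 292 CPM). In that list 5 of 6 tested genes varied and 3 were highest in tumour 3.

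For Spp1, the receptor Cd44 was at 339, 539, 492 and 409 CPM, lowest in tumour 1 where Spp1 was highest. The integrin chain Itgb5, named after its values were seen, ran with Spp1 at its ends instead, at 63.4, 56.6, 33.2 and 36.8 CPM. Among 12 genes of Spp1 and Gpnmb partners, 10 varied and 7 were highest in tumour 3, with Mitf, a factor that drives Gpnmb in several cell types, at 3.30, 11.6, 18.3 and 15.6 CPM and its relative Tfec at 2.53, 3.14, 17.5 and 6.54 CPM. Tumours 3 and 4 were the upper pair for both, as they were for Gpnmb. For Pparg, its dimer partner Rxra was at 85.9, 47.4, 39.7 and 41.4 CPM, high in tumour 1, and of 9 tested partners and targets 9 varied and 1 was highest in tumour 3. Angptl4, a lipase inhibitor, was at 42.6, 13.4, 12.2 and 30.9 CPM, high in tumours 1 and 4. Other genes of that list went differently. Ppargc1a, with the largest SD of those tested, was lowest in tumour 1, at 4.62, 21.3, 14.6 and 13.2 CPM. Cebpa, with the highest mean CPM, was highest in tumour 2, at 326, 348, 207 and 341 CPM. Of 10 tested genes of the scavenger and mannose receptor families, 10 varied and 6 were highest in tumour 3; Scara3, another member of the class A family, was at 126 CPM in tumour 1 and 12.1 CPM in tumour 3. Of 13 tested activation genes 8 varied and 8 were highest in tumour 3. Retnla, made by alternatively activated macrophages, was at 20.0, 65.3, 122 and 75.5 CPM and Arg1, an arginase linked to the same state, at 25.0, 16.4, 11.4 and 7.14 CPM, so these genes had different tumours at the top.

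Among 10261 other genes with a mean of at least 10 CPM, likeness to a member was measured as the root mean square difference of log2 CPM centred on its mean over the 4 tumours, with small values for like profiles. Marco was nearest to F10, coagulation factor X, at 0.11 log2 units, followed by Igj and Igkc, both parts of immunoglobulins. F10 was at 4.401, 6.27, 35.7 and 8.21 CPM, high in tumour 3 as Marco was. Mrc1 was nearest to Itga7, Tnfaip2 and Cxcl17 (0.03 to 0.04). Trem2 was nearest to Sox13 and Hsf4 and then to the macrophage gene Mpeg1 (0.05), which was at 126, 168, 383 and 229 CPM. Ear2 was nearest to Cytip, Cd84 and P2ry14 (0.06 to 0.08), of which Cd84 is a receptor of leukocytes. Between members, Trem2 and Ear2 were the closest pair at 0.19, and Marco was no closer to any member than 0.61 (Ear2). With 4 tumours many genes share a profile by number alone, 516 of them lying within 0.1 of the flat profile of Pparg.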

How the data were processed

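RNA of dissociated tumours was made into TruSeq stranded libraries of polyadenylated RNA from 500 ng. Per the submitters' processing notes, the authors demultiplexed with bcl2fastq 2.17, trimmed with cutadapt 1.4.2, aligned to mm10 with HISAT2 and counted with featureCounts 1.4.4. The strand setting and annotation release are not given in the sources used here. The deposited values are raw counts per gene, and the combined table equalled the single tables in 156068 of 156068 values. The deposited log2 table, normalised by the authors with TMM and voom, served as an alternative only. No column was without a sample (0).

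CPM were counts per 1000000 of the effective library size (TMM, edgeR 4.0.16 in R 4.3.3). log2 CPM had 0.5 added to each count and 1 to the size. Genes averaging 1 CPM or more were tested by a chi-square of the 4 counts against Poisson expectations (3 degrees of freedom), with Benjamini-Hochberg adjustment and a threshold of 0.05. The common biological coefficient of variation was 30.8%. Ratios carry exact conditional binomial (Clopper-Pearson) 95% intervals. Reads had no molecular identifiers, so intervals and the floor of 3 counts cover counting error only. Lengths came from GENCODE M21, which held 96.6% of the identifiers, and near-identical copies were sought with BLAST 2.17.0 (at least 80 bases at 97%). All 187 list entries matched, 4 by identifier (Adgre1, Siglecf, Chil3 and Plet1, listed under older symbols). The scripts were tested on simulated data.

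The members and lists were chosen with earlier results of these data known. Named besides members were, from each list, the 3 genes of highest mean CPM, the 3 of largest SD and genes at the floor, direct partners, near-identical copies, and the 3 nearest genes by likeness; the members of the pan-macrophage list and the markers of eosinophils are named as lists. Alternatives were DESeq2 1.42.0 size factors, library size only, other filters, 2 added to each count, the deposited log2 table, longest transcripts and each tumour left out.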

Additional observations from a re-analysis of the deposited data

Results flagged for a closer look

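Of 46 values examined over the 4 tumours, 2 had a tumour farther from the rest than Dixon's 95% limit for 4 samples, where chance, at about 5% of such sets, would give 2.3. Both concern tumour 3, the tumour highest for 8 of 10 macrophage genes, and both are marker lists of other cells. The mean log2 CPM of the 3 tested T cell markers stood at 2.09 in tumour 3, whereas tumours 1, 2 and 4 had -0.31, -0.07 and -0.46. Counts were low: the summed level of all 5 markers was 19.7 CPM in tumour 3 and 2.64 to 4.41 CPM in the others. Most of the 19.7 CPM was Cd2, at 12.6 CPM. Cd3g was also high in tumour 3, at 3.33 CPM, but Trbc2 was at 0.770, 1.51, 1.73 and 0.357 CPM. These genes were named after their values were seen. The mean log2 CPM of 5 endothelial markers stood at 5.21 in tumour 3, the others having 4.82, 4.85 and 4.78. Of the 5, 3 were highest in tumour 3, while Cdh5 was highest in tumour 1 and Kdr in tumour 2. The part of T cells and endothelium in the values of the macrophage genes was not tested.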

How the results depend on the processing

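Of 299 recomputed values, 279 kept their direction and stayed within the spread between tumours, or within 1.5 times for counts and SDs. Of the rest, 17 moved and 3 reversed. Part of the 279 could not have differed. The SDs relative to the pan-macrophage list and the alveolar minus lipid-associated balance rest on differences within a tumour. Library scaling cancels in them, and they were the same in the deposited log2 table. Without tumour 3 the SD of log2 CPM fell to 0.47 for Marco, 0.22 for Mrc1, 0.20 for Cd68 and 0.56 for Ear2, and the SD relative to the pan-macrophage list to 0.33 for Marco, 0.17 for Mrc1 and 0.79 for Spp1; the latter SD fell to 0.11 for Msr1 without tumour 1 and to 0.17 for Gpnmb without tumour 4. The members with a range over 2-fold numbered 3 to 5 when each tumour was left out, the 3 being without tumour 3, and over all genes 2333 to 3581, against 10680 with no filter on low values and 1765 averaging 10 CPM or more. Genes with 1 tumour apart numbered 3445 with no filter, 834 with it and 697 to 723 over left-out tumours. The range of the alveolar minus lipid-associated balance was 0.43 to 1.49 over left-out tumours, lowest without tumour 3, and 0.71 without Spp1. Neighbours in the level order that reversed were Cd68 minus Pparg per longest transcript (-0.080), Msr1 minus Marco (-0.37 to 0.66 over left-out tumours, lowest without tumour 1) and Marco minus Trem2 (-0.084 to 0.48, lowest without tumour 3); the cause was not tested. Members varying beyond counting noise numbered 9 to 10, Marco being lost without tumour 3 and Pparg without tumour 1. The count of members highest in tumour 3 stayed at 8 under both other scalings, with 2 added to each count and in the deposited log2 table, alternatives chosen after seeing the data. Low counts limit Marco most, with 12 to 21 counts in 3 tumours. No paired analysis was possible because there is 1 group.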
